A study of Rattus norvegicus with 56 samples.

Results

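Of 7 genes that mark GABA interneurons of the striatum, Npy, Sst, Nos1, Pvalb, Calb2 and Chodl each had 1 probe set on the array, and Lhx6 had none under its symbol. The members were taken by gene symbol in the array annotation, which gave 6 of the 31042 probe sets that are not controls. Tissue came from the dorsal striatum of male rats (Crl:OFA, Sprague Dawley), 56 animals with an array each, in 8 groups of 7. Lesioned rats carried a bilateral nigral loss made by AAV-driven alpha-synuclein, and sham rats had the same vector expressing GFP, so that every rat had vector in the nigra. Starting 5 weeks after surgery, rats were injected daily for 3 weeks with saline or with 50 mg/kg of L-dopa methyl ester together with benserazide. They were then conditioned with pramipexole, a D2/D3 dopamine receptor agonist (2 mg/kg, sessions of 40 min), or with saline only, and tissue was taken 24 or 48 h after the last dose. The groups were lesioned or sham rats given both drugs, L-dopa alone, pramipexole alone, or saline throughout.

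Interneurons are the minority of striatal cells; most are spiny projection neurons. One class makes the peptides neuropeptide Y (Npy) and somatostatin (Sst) together with neuronal nitric oxide synthase (Nos1), another the calcium buffer parvalbumin (Pvalb) and fires fast, and another calretinin (Calb2). Chodl is a membrane protein known in mouse cortex from the Sst and Nos1 cells of long range, and Lhx6 is the transcription factor that directs the Npy, Sst and Pvalb classes. In this bulk tissue, fewer cells of a class and less RNA per cell cannot be told apart.

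Signals are log2 values of MAS5, and a change is a difference of log2 signals. Of the 6 markers, Npy, Sst, Pvalb and Chodl had a mean above the filter of 4.99 and were tested with 18625 probe sets. Nos1 (mean 4.25) and Calb2 (mean 4.97) lay below it and have values from a fit of all probe sets. Signals of different probe sets do not compare transcript amounts. Earlier work on these data found that arrays numbered 1 to 37 and 38 to 56 stand apart, a position the labels do not give. Numbers 1 to 37 hold all 28 lesioned and 9 sham rats, and numbers 38 to 56 hold 19 sham rats, so each drug was compared inside one range. In the group of sham rats given L-dopa alone, the ranges divide 2 rats from 5. Rat 2, lesioned and given both drugs, stood apart in its microglia score (2.97, against 0.74 in the next highest rat).

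Upstream sequences are shown for the 3 genes of the Npy, Sst and Nos1 class, whose co-variation is described further on. Each window holds 250 bases before and 30 bases from the annotated start, from RefSeq on GRCr8, with matches in capitals. The motifs were searched on both strands: the full cyclic AMP response element TGACGTCA, its core TGACG, which the full element contains on each strand, and the TATA box TATAAA. Npy lies at chr4:80211861-80212140 on the plus strand, Sst at chr11:90461296-90461575 on the plus strand, and Nos1 at chr12:44371808-44372087 on the minus strand.
Npy: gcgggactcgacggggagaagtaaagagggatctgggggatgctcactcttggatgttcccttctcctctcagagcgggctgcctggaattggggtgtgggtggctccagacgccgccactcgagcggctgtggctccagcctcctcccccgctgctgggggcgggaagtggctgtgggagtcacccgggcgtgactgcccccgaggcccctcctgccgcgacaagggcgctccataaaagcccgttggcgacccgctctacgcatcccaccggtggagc
Sst: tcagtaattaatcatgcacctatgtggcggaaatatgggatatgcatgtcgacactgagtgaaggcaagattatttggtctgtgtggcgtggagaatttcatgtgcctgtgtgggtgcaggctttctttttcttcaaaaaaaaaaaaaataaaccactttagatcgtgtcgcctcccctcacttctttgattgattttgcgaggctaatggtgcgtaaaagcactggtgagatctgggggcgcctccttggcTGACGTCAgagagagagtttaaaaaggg
Nos1: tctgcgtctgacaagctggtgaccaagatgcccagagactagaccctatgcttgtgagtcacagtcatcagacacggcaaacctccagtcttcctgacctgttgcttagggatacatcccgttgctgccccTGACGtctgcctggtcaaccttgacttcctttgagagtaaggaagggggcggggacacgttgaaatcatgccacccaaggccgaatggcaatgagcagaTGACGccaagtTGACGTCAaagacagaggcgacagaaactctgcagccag

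The full element stood at bases 3 to 10 from the annotated start in Sst and at bases -9 to -2 in Nos1. No match stood in the Npy window. These places depend on the RefSeq starts, and where transcription starts in this tissue was not tested. Of 33469 promoters of this length, 595 (1.78%) held the full element and 20.2% the core. A first search used only the 250 bases before the start, found the full element in Nos1 and not in Sst (1.59% of promoters), and was then widened past the start, knowing of the element. TATAAA was in none of the 6 member windows searched and in 13.7% of all. Only these exact letters were searched, so a variant form of the box would be missed. Calb2 was not searched.

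**Figure D1:**
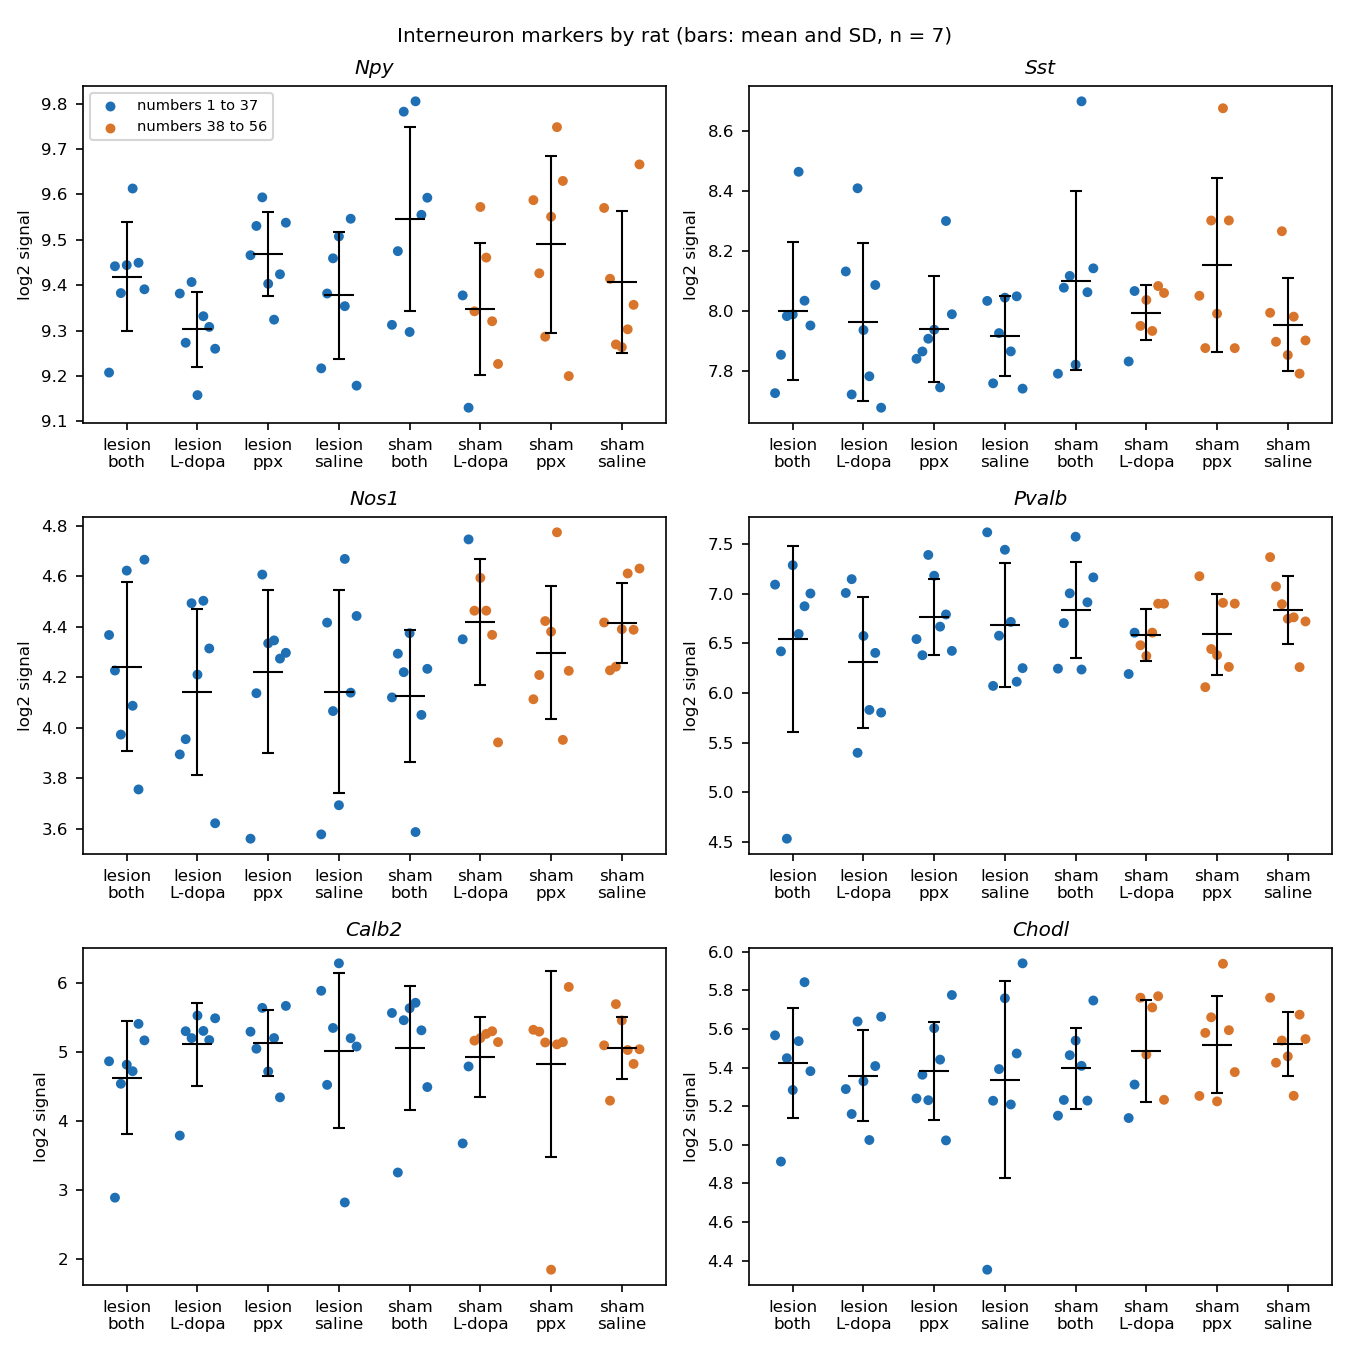
Log2 signal of 6 interneuron markers in each rat (points, coloured by array number range), by group in 8 columns, with mean and SD in black. The groups overlap for every marker, and single low rats stand out for Pvalb (4.53) and Calb2 (1.84).

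Group means of Npy, the peptide neurotransmitter, spanned 0.24 (log2), the largest step between neighbours in the order was 0.06, and the SDs inside groups were 0.08 to 0.20. The pooled within-group SD of 0.15 was larger than that of 74.2% of 1000 probe sets of like mean. The 4 highest means were those of the 4 pramipexole groups, an order that spans both number ranges. In lesioned rats given both drugs Npy was 9.21, 9.44 and 9.61 (lowest, median, highest), against 9.16, 9.31 and 9.41 in lesioned rats given L-dopa alone. In lesioned rats given pramipexole alone it was 9.32, 9.47 and 9.59, against 9.18, 9.38 and 9.55 in lesioned saline rats. In sham rats given pramipexole alone it was 9.20, 9.55 and 9.75, against 9.26, 9.36 and 9.67 in sham saline rats. All 3 pairs of groups overlapped.

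Npy did not pass the test in any comparison. The pramipexole change was 0.12 ± 0.08 (SE, 95% interval -0.04 to 0.27) in lesioned L-dopa rats, with 6 of 7 rats above the mean of the other group. It was 0.09 ± 0.08 in lesioned saline-treated rats (6 of 7) and 0.08 ± 0.08 in sham rats (5 of 7). In size these changes were larger than those of 73.9%, 60.9% and 61% of all tested probe sets. In sham L-dopa rats, 7 were set against only 2, and the change was 0.29 ± 0.12 (limma unadjusted p = 0.0172, adjusted p = 1). The mean over the 3 comparisons of 7 against 7, computed after those values had been seen, was 0.10 ± 0.05, with 17 of 21 rats above. It did not pass (limma unadjusted p = 0.0389, adjusted p = 0.82), and 6.07% of all probe sets had an unadjusted p under 0.05 for this mean.

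L-dopa and the lesion gave small Npy differences of the other sign. L-dopa gave -0.07 ± 0.08 in lesioned saline-conditioned rats (2 of 7 rats above the other mean), -0.05 ± 0.08 in lesioned pramipexole-conditioned rats (1 of 7) and -0.02 ± 0.09 in sham rats of numbers 38 to 56 (2 of 5). Lesioned rats given both drugs lay 0.13 below sham rats given both drugs (change -0.13 ± 0.08, 95% interval -0.29 to 0.03, limma adjusted p = 0.803), whose Npy was 9.30, 9.55 and 9.80. None of these passed.

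Sst, the inhibitory peptide somatostatin, had group means that spanned 0.24, with SDs of 0.09 to 0.30 and a largest step of 0.10. Its pooled SD of 0.22 was larger than that of 90.5% of 1000 probe sets of like mean. Sham rats given pramipexole alone had 7.87, 8.05 and 8.68, against 7.79, 7.90 and 8.27 in sham saline rats. The groups overlapped, and the change of 0.20 ± 0.12 did not pass (limma adjusted p = 0.827). In lesioned rats the pramipexole change was 0.04 ± 0.12 with L-dopa and 0.02 ± 0.12 without. The difference of the pramipexole effect between lesioned and sham saline-treated rats was -0.18 ± 0.16 (limma adjusted p = 0.903).

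The highest Sst values were in sham rats given both drugs, at 7.79, 8.08 and 8.70, and in sham rats given pramipexole alone. Lesioned rats given both drugs had 7.72, 7.98 and 8.46, and the lesion change in rats given both drugs was -0.10 ± 0.12 (limma adjusted p = 0.918), with 1 of 7 lesioned rats above the sham mean. L-dopa gave 0.05 ± 0.12 in lesioned saline-conditioned rats, 0.06 ± 0.12 in lesioned pramipexole-conditioned rats and 0.06 ± 0.13 in sham rats. The 3 estimates were positive and smaller than their SE.

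Nos1, the enzyme that makes nitric oxide in these cells, had means that spanned 0.29 with SDs of 0.16 to 0.40. Lesioned saline rats had 3.58, 4.14 and 4.67, against 4.23, 4.39 and 4.63 in sham saline rats. The ranges overlapped, and the change was -0.27 ± 0.16 (limma fit of all probe sets, adjusted p = 0.52). Nos1 averaged 4.20 ± 0.32 in numbers 1 to 37 and 4.36 ± 0.22 in numbers 38 to 56 (SD, n = 37 and 19), so lesion and number range cannot be told apart here. Within numbers 1 to 37, the lesion in rats given both drugs gave 0.12 ± 0.16.

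Pvalb, the calcium buffer of fast-spiking cells, varied most of the tested markers. Its within-group SD of 0.56 was larger than that of 99.1% of 1000 probe sets of like mean. Lesioned rats given L-dopa alone had 5.40, 6.40 and 7.15, against 6.07, 6.58 and 7.62 in lesioned saline rats. These groups overlapped, and the L-dopa change was -0.38 ± 0.29 (limma adjusted p = 0.61). Over all lesioned rats L-dopa gave -0.30 ± 0.20 (14 against 14, limma adjusted p = 0.623), with 6 of 14 rats above the other mean. Without rat 3 (4.53) the pooled change was -0.13, and L-dopa in pramipexole-conditioned lesioned rats gave 0.11 in place of -0.23. With the cortex score as a covariate the first change was -0.75, and with the spiny neuron score, added after the values were seen, -0.72. Neither passed (limma unadjusted p = 0.0049 and 0.00355, adjusted p = 0.387 and 0.325). For L-dopa in lesioned saline-conditioned rats 0 markers of other cell types were called. The median change was 0.46 over cortex genes (8 of 9 positive), -0.12 over spiny neuron genes (0 of 13 positive) and -0.46 over cholinergic genes (0 of 3 positive). At an unadjusted p under 0.05 there were 4 of 9, 2 of 13 and 3 of 3, against 12.8% of all probe sets in this contrast.

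Pramipexole changes of Pvalb had no common direction: 0.23 ± 0.29 in lesioned L-dopa rats, 0.08 ± 0.29 in lesioned saline-treated rats and -0.24 ± 0.29 in sham rats. Lesioned rats given both drugs had 4.53, 6.88 and 7.29, against 6.24, 6.92 and 7.58 in sham rats given both drugs, a change of -0.29 ± 0.29 (limma adjusted p = 0.898). The low value belongs to rat 3. Without it this lesion change was 0.04, and the pramipexole change in lesioned L-dopa rats was 0.57 in place of 0.23 (limma unadjusted p = 0.0262, adjusted p = 0.851).

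Calb2, the calcium buffer of the calretinin class, had the widest spread, 0.83 inside groups. That was wider than 99.9% of the 1000 tested probe sets nearest in mean, which all lay above the filter and so above Calb2. Sham rats given pramipexole alone had 1.84, 5.14 and 5.94, against 4.29, 5.04 and 5.69 in sham saline rats, and lesioned rats given both drugs had 2.89, 4.81 and 5.41. A low rat stood apart in several groups, while the medians of all 8 groups lay between 4.81 and 5.46. Chodl group means spanned 0.19. Chodl was 4.35, 5.39 and 5.94 in lesioned saline rats, against 5.25, 5.54 and 5.76 in sham saline rats, with a change of -0.19 ± 0.15 (limma adjusted p = 0.611).

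The Chodl change without drugs also spans the number ranges, as Chodl averaged 5.37 ± 0.29 in numbers 1 to 37 and 5.54 ± 0.21 in numbers 38 to 56 (SD, n = 37 and 19). Inside a range, its drug and lesion changes lay between -0.0049 and 0.07 in the comparisons of at least 5 rats a side. Inside the sham group given L-dopa alone, the 2 rats of numbers 1 to 37 lay below the 5 others on average for Chodl (-0.36 ± 0.23) and for Calb2 (-0.98 ± 0.69), and neither passed.

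By limma, 0 of the 4 tested markers were called in any of 14 comparisons at adjusted p under 0.05. Only 1 (Npy, pramipexole in sham L-dopa rats) had an unadjusted p under 0.05 in any of them. The share of all probe sets at that unadjusted threshold was 3.44% in this comparison and 5.04% to 13.7% in the others. Of all probe sets, 0.0161% were called for L-dopa in lesioned saline-conditioned rats, 0.00537% for L-dopa in all lesioned rats and 0.0161% for pramipexole in lesioned L-dopa rats, where 3 probe sets were called with rat 2 and 0 without it. The share was 1.13% for lesion without drugs and 0% in the other 10. Few genes of any kind were called inside a number range, and the 3′ minus 5′ control signal averaged 0.81 ± 0.04 in lesioned saline rats and 1.01 ± 0.13 in sham saline rats (SD, n = 7 each). With that signal as a covariate, 61 probe sets (0.328%) were called for lesion without drugs in place of 211. The marker changes were then -0.04 for Npy, -0.13 for Sst, -0.15 for Pvalb and -0.17 for Chodl. Without the covariate they were -0.03, -0.04, -0.15 and -0.19, and none was called in either fit. In the 2 comparisons added later, 0.00537% were called for the pramipexole mean and 0.0859% between the number ranges of sham L-dopa rats, with 0 markers.

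**Figure D2:**
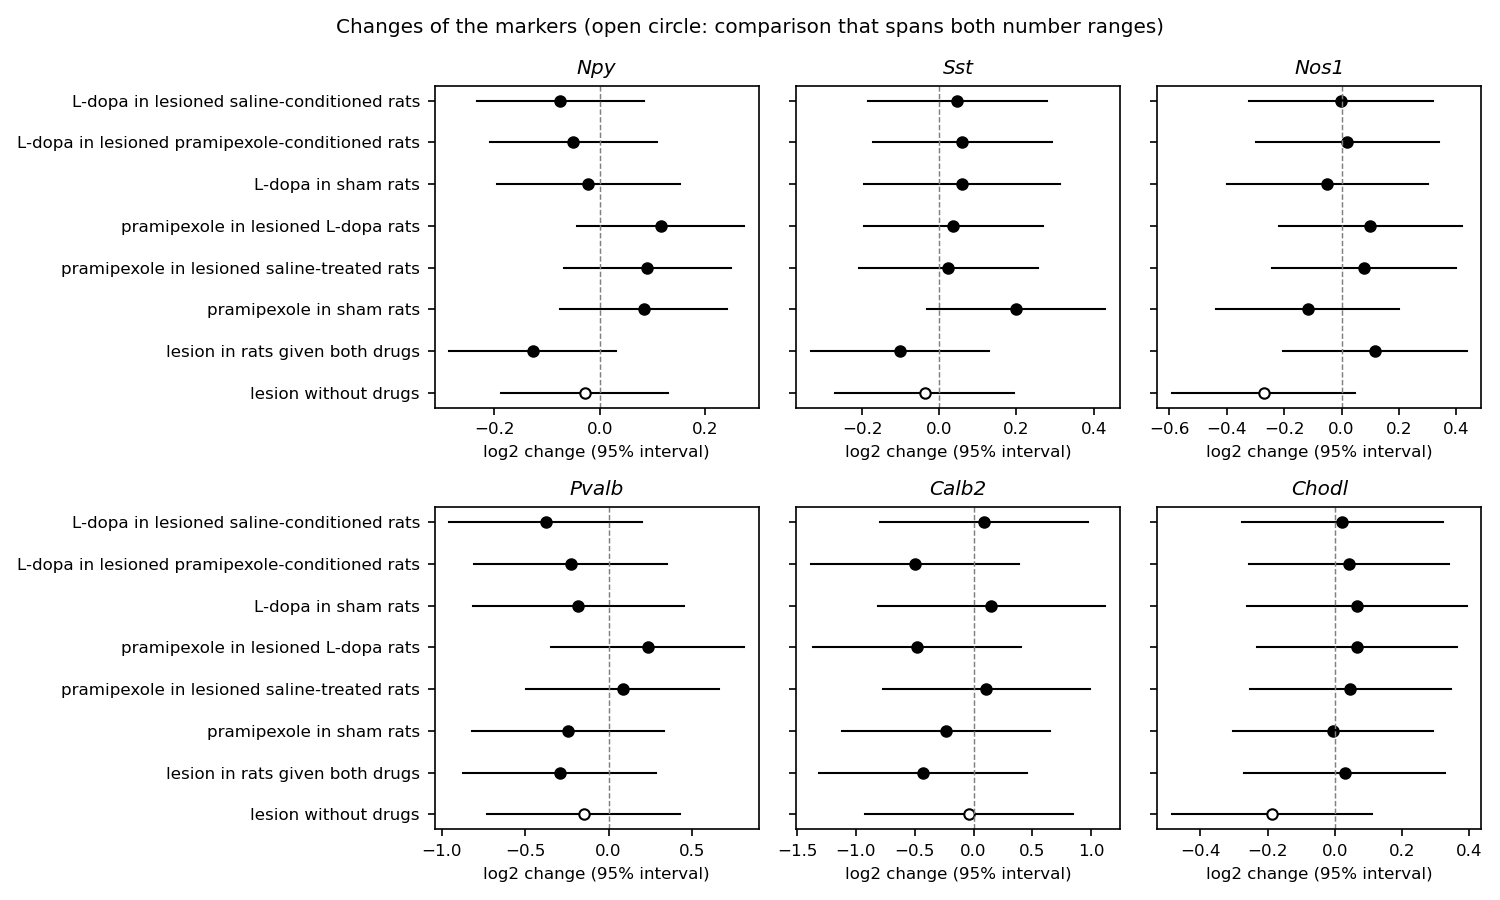
Log2 change (x axis) with 95% interval for each marker in 8 comparisons (y axis); Nos1 and Calb2 come from the fit of all probe sets, and the open circle marks the comparison that spans both number ranges. Every interval drawn includes 0; the Npy intervals for pramipexole in sham L-dopa rats (0.05 to 0.53) and for the mean of 3 pramipexole comparisons (0.01 to 0.19) are not drawn and lie above 0, although neither change was called.

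Other interneuron genes were likewise not called. Of 22 tested genes of an interneuron list (Gad1, Kcnc1, Crhbp and others, of 37 listed), 0 were called in each comparison, and for L-dopa in lesioned saline-conditioned rats 12 were positive, with a median of 0.02 against 0.01 for all probe sets. At an unadjusted p under 0.05 there were 5 of 22, against 12.8% of all probe sets in this contrast, and the 4 of smallest p were Satb1 (0.43 ± 0.14), a chromatin organiser, Nkx2-1 (-0.30 ± 0.11) and Dlx1 (0.29 ± 0.12), transcription factors of interneuron development, and Gad2 (-0.34 ± 0.16), which makes GABA. Of 13 tested genes for peptide receptors, processing and nitric oxide signalling, 0 were called in the same contrast and 3 had an unadjusted p under 0.05. These were Gucy1a1 (-0.23 ± 0.10), a subunit of the nitric oxide receptor, Sstr1 (0.43 ± 0.20), a somatostatin receptor, and Nos1ap (0.28 ± 0.13), an adaptor of Nos1. For pramipexole in sham rats, 0 of 22 and 0 of 13 were called, and 0% of all probe sets. At an unadjusted p under 0.05 there were 0 in both lists, against 6.32% of all probe sets.

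Between rats of the same group, Npy and Sst varied together. Over all 56 rats Nos1, which lies below the filter, had an r near 0 with both, with signs that differed between the number ranges. Deviations from the group means gave r = 0.48 for Npy and Sst over 56 rats (permutation p = 0.00077, adjusted over 15 pairs p = 0.0115). By ranks rho was 0.40 (permutation p = 0.00611, adjusted p = 0.0916), so the rank relation did not pass. Without the 2 rats farthest on Npy, r was 0.41 (permutation adjusted p = 0.0766), so the call rests on those rats. Nos1 gave r = -0.02 with Npy (permutation p = 0.899, adjusted p = 0.963; rho = -0.04, p = 0.778) and r = -0.07 with Sst (permutation p = 0.635, adjusted p = 0.794; rho = -0.07, p = 0.662).

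The relation was higher in numbers 1 to 37 (r = 0.59, permutation adjusted p = 0.00585) than in numbers 38 to 56 (r = 0.30, 19 rats, adjusted p = 0.717), a difference that was not tested. Single rats also decided the call. Without rat 5 (lesioned, both drugs), 33 (sham, both drugs) or 47 (sham, pramipexole alone), r was 0.44, 0.41 and 0.42 and the permutation adjusted p 0.0574, 0.0561 and 0.0519. Sst was 8.46, 8.70 and 8.68 in those rats. Inside single groups of 7, r was positive in 6 of 8, between -0.35 and 0.89, and the smallest exact permutation p was 0.00437 (adjusted over 24 tests p = 0.105). Nos1 gave r = -0.20 with Npy and -0.17 with Sst in numbers 1 to 37, and 0.395 and 0.26 in numbers 38 to 56. None of these passed (permutation adjusted p from 0.63 to 0.813). Inside single groups, r of Sst and Nos1 lay between -0.83 and 0.58.

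**Figure D3:**
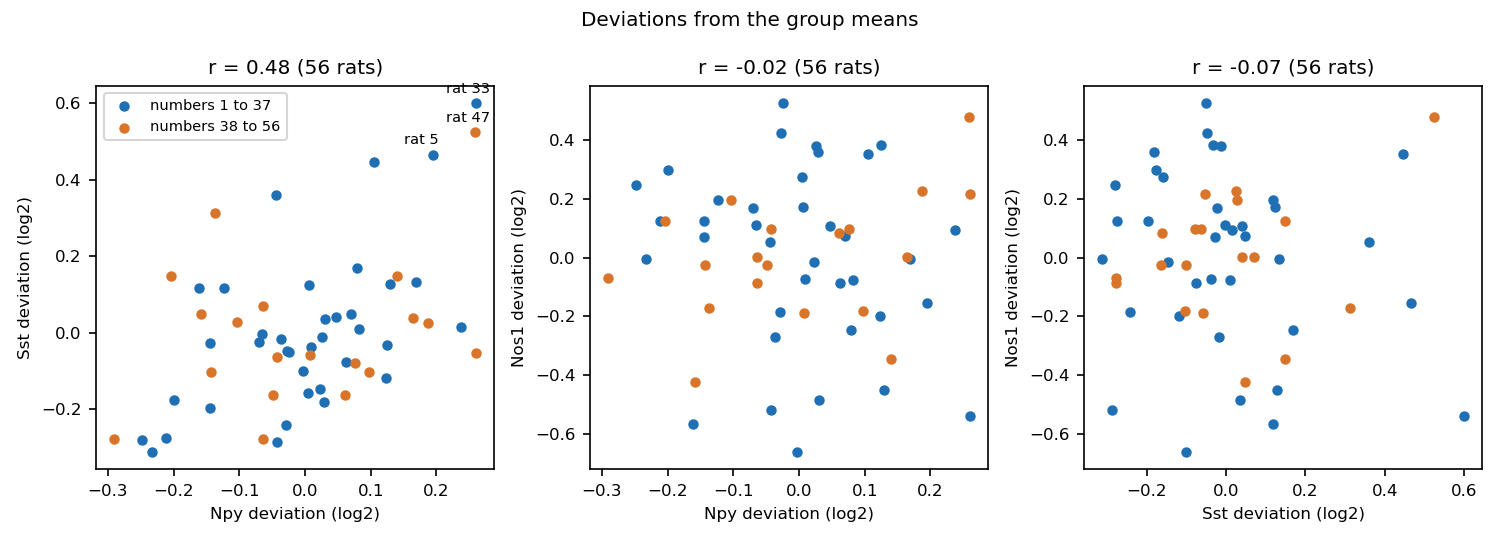
Deviation of each rat from its group mean (log2) for Npy and Sst, Npy and Nos1, and Sst and Nos1, coloured by number range. Npy and Sst rise together (r = 0.48), with rats 5, 33 and 47 at the upper right. Over all rats of both number ranges Nos1 shows no such slope (r = -0.02 and -0.07).

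Removing tissue scores left the relation of Npy and Sst about as large: r = 0.46 with the cortex score removed from both, 0.49 with the 3′ minus 5′ signal removed and, added later, 0.51 with the spiny neuron score removed. Of 18624 other tested probe sets, 7 had a higher r with Npy than Sst did. The genes most alike to Npy were Ufd1 (r = 0.53), Ube3d (0.52), Mamstr (0.51), Dmac2l (0.50) and Vcf1 (0.48), and to Sst Maged1 (0.53), Wdr6 (0.52), Rgs17 (0.51), Znf865 (0.50) and Zfp846 (0.49). Those of Nos1 were Nsrp1 (0.56), Tafa5 (0.52), Tatdn3 (0.51), Dgcr2 (0.51) and Ctu2 (0.51). Within the interneuron list, Crhbp, which binds corticotropin-releasing hormone, had the highest r with both Npy (0.47) and Sst (0.43). These values over 56 rats are descriptions, since each gene is compared on the same arrays.

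Pvalb varied with markers of other cell types. In 60 correlations of 6 markers with 10 scores, computed after values were seen, Pvalb fell as the spiny neuron score rose (r = -0.63, permutation p = 1e-05, the smallest possible, adjusted p = 0.0006; rho = -0.57, p = 0.0001, adjusted p = 0.006). It rose with the cortex score (r = 0.55, permutation p = 8e-05, adjusted p = 0.0024; rho = 0.51, p = 0.00029, adjusted p = 0.0087). Without the 2 farthest rats the values were -0.56 and 0.63. Within numbers 1 to 37 they were -0.66 and 0.64, and within numbers 38 to 56 -0.51 and 0.28. Rat 3, with the lowest Pvalb, did not decide them: without it r was -0.59 and 0.50.

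All 13 tested spiny neuron genes had a negative r with Pvalb, down to -0.70 for Ppp1r1b, the dopamine-regulated phosphatase inhibitor of these cells, and 8 of 9 cortex genes a positive one. Genes most alike to Pvalb, named after their values were seen, were Elavl2 (0.81), Pcdh9 (0.79), Efr3a (0.76), Ralyl (0.75) and Nrip3 (0.74). The potassium channels Kcnc1 (0.74), Kcnc2 (0.67) and Kcna2 (0.66), used by fast-spiking cells, were the highest of the interneuron list, in which 12 of 22 genes had a positive r (median 0.25). The peptide genes Vip (0.64) and Cck (0.54) came next. In the receptor and processing list, the somatostatin receptor Sstr1 reached 0.69, so high values were not confined to genes of fast-spiking cells. The genes for GABA synthesis and vesicle loading were negative, with -0.39 for Gad1, -0.33 for Gad2 and -0.29 for Slc32a1. In all, 262 probe sets had r beyond 0.6 in either direction with Pvalb, against 0 for Npy, 1 for Sst and 0 for Nos1. In a list for septum, thalamus and pallidum, 1 of 4 genes had a positive r with Pvalb. It was Slc17a6 (0.63), above the highest cortex gene, Neurod6 (0.57). The score of that list gave r = 0.19 (permutation adjusted p = 0.605). Cortex also holds parvalbumin cells, and the part of dissected cortex or of other neighbouring tissue in these values was not tested.

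**Figure D4:**
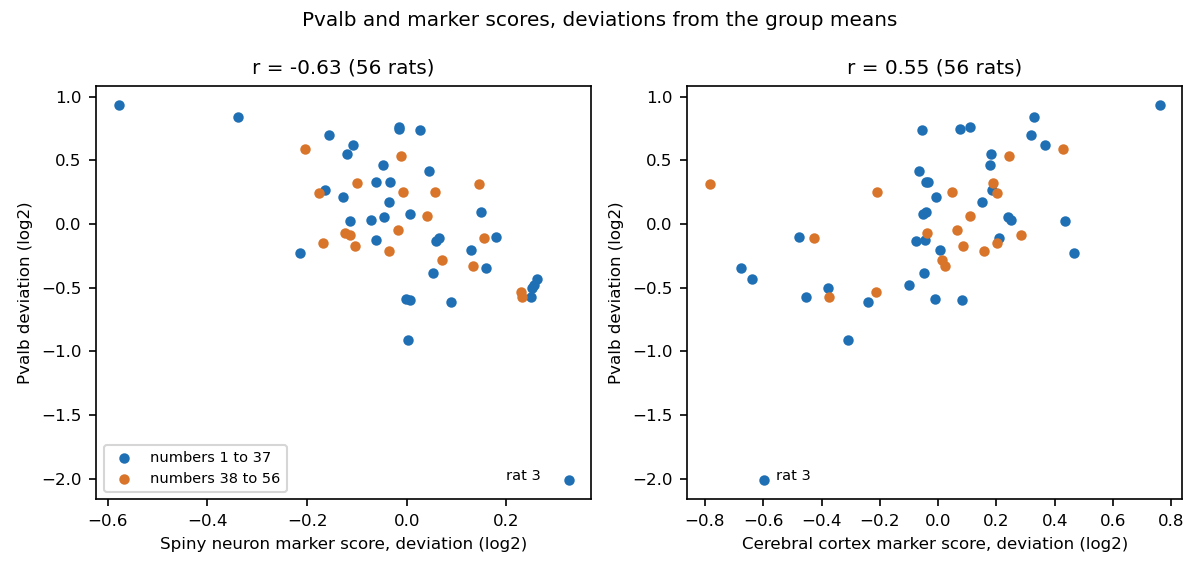
Pvalb deviation from the group mean (y axis, log2) against the deviation of the spiny neuron score and of the cortex score (x axes, log2) in 56 rats. Pvalb falls with the first (r = -0.63) and rises with the second (r = 0.55), and rat 3 is the lowest.

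**Figure D5:**
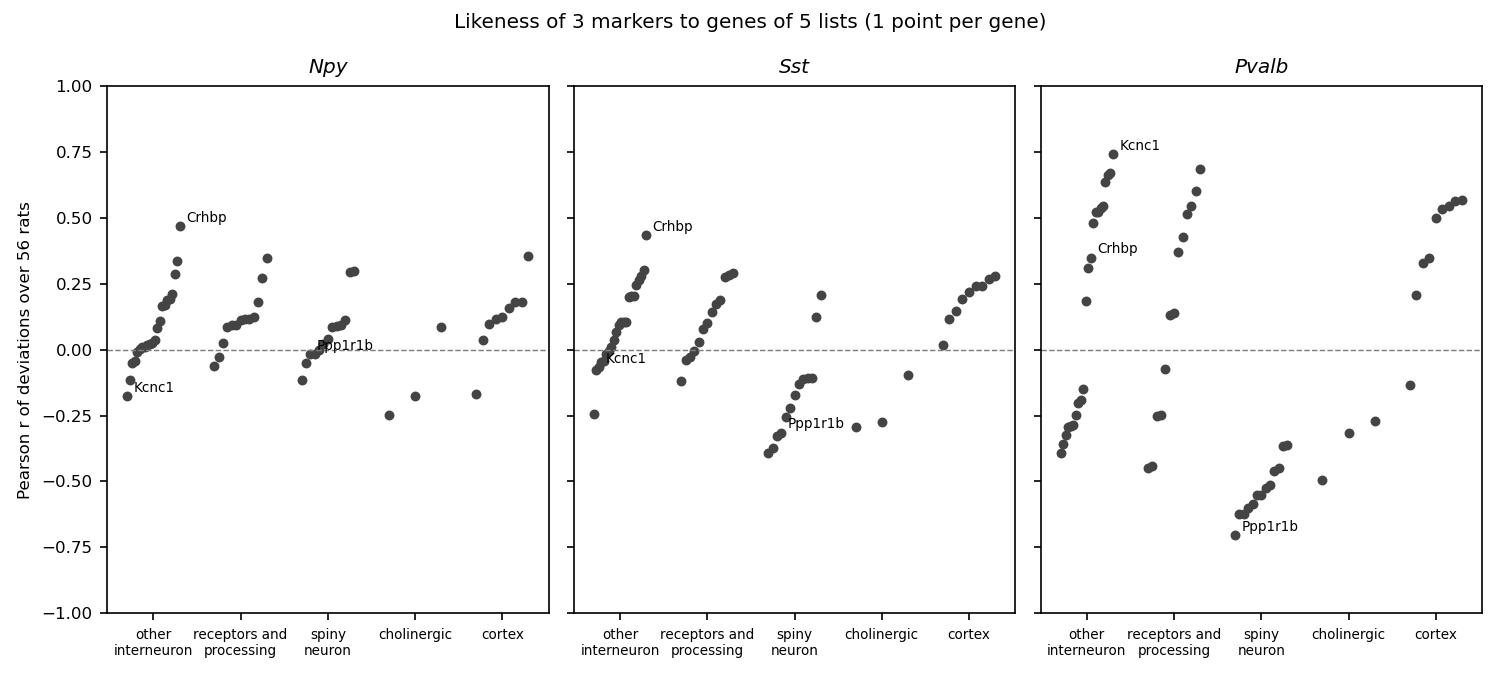
Pearson r over 56 rats (y axis) of Npy, Sst and Pvalb with the tested genes of 5 lists (x axis, 1 point per gene). Npy and Sst lie between -0.39 and 0.47, with Crhbp highest for both, and Pvalb reaches 0.74 (Kcnc1) and -0.70 (Ppp1r1b).

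Npy and Sst had no passing relation with any score by Pearson r. Chodl fell as the microglia score rose (r = -0.37, permutation p = 0.0013, adjusted p = 0.0195; rho = -0.38, p = 0.00299, adjusted p = 0.0482), but this was -0.24 without the 2 farthest rats and -0.28 without rat 2. By ranks, Sst also had rho = -0.35 with microglia (permutation adjusted p = 0.0482), while its r was -0.20 (adjusted p = 0.605). Pvalb with the cholinergic score gave r = -0.44 (permutation p = 0.00118, adjusted p = 0.0195; rho = -0.42, p = 0.0035, adjusted p = 0.0482).

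The genes most alike to Chodl and Calb2 were named after their values were seen. For Chodl they included Sdr39u1 (r = 0.62) and Eml1 (0.59), and for Calb2 Hilpda (0.49) and Pet100 (0.49). All 13 tested spiny neuron genes had a positive r with Chodl, with a median of 0.33 and Pdyn, the precursor of dynorphin, highest at 0.52, while the median over 9 cortex genes was -0.38. The signs were opposite for Pvalb, whose medians were -0.55 over spiny neuron genes and 0.50 over cortex genes. The spiny neuron and cortex scores did not pass with Chodl by r. For spiny neurons r was 0.43 (permutation p = 0.014, adjusted p = 0.14, and rho = 0.26, p = 0.0722). For cortex r was -0.41 (permutation p = 0.0108, adjusted p = 0.13, and rho = -0.27, p = 0.0695). Without the 2 farthest rats these r were 0.17 and -0.42. Within numbers 1 to 37 they were 0.53 and -0.59, and within numbers 38 to 56 0.09 and 0.11.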

How the data were processed

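Dorsal striatum RNA (100 ng) of 56 rats was labelled with a 3′ kit and hybridized to Affymetrix Rat230_2 arrays, per the labels' protocols. The deposited values are log2 signals, made with MAS5 per the submitters' processing notes; version and scaling target are not given in the sources used here. Unlogged, every array has a trimmed mean (2% off each end) of 150.04 to 150.05, so the values were used as deposited. Detection calls were not used here. Precision is limited by the number of arrays.

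Of 31099 probe sets 57 are controls, and the 18625 above the 40th percentile of mean signal were tested. The fit, by limma 3.58.1 (R 4.3.3), had 9 means: the 8 title groups, with sham L-dopa saline rats divided at number 38. Tests were two-sided, with Benjamini-Hochberg adjustment over all tested probe sets. Co-variation used deviations from these means and 100000 permutations inside them, adjusted over 15 pairs, since Lhx6 has no probe set. A score is the mean of a list's centred signals; the 3′ minus 5′ signal is the mean over 3 control genes. Both procedures were tested on simulated data. Each rat was taken as a separate animal, 1 sample per rat.

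Named genes are all members, the 5 genes most alike to Npy, Sst and Nos1, and up to 4 of smallest p per list. The members, lists and number ranges were chosen with earlier results of these data known. Choices added after values were seen are named as such in the text. Promoters are from RefSeq, and 6 of 7 members matched.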

Additional observations from a re-analysis of the deposited data

Results flagged for a closer look

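In 48 sets of 7 rats (6 markers in 8 groups), 9 values, from 8 rats, lay far from the other 6 of their group; chance alone gives about 1 in 20. Sst was high in rat 5 (8.46, lesioned, both drugs, the next rat at 8.03), in rat 33 (8.7, sham, both drugs, next 8.14) and in rat 52 (8.27, sham saline, next 7.99). Nos1 was low in rat 33 (3.59, next 4.05). Pvalb was low in rat 3 (4.53, lesioned, both drugs, next 6.42). Calb2 lay far below the rest of the group in 4 rats: rat 2 (2.89, lesioned, both drugs), rat 8 (3.79, lesioned, L-dopa alone), rat 36 (3.67, sham, L-dopa alone) and rat 46 (1.84, sham, pramipexole alone). Rat 36 and rat 37, at 4.79, are the 2 rats of that group in numbers 1 to 37, and both lay below its 5 rats in numbers 38 to 56 (5.14 to 5.30), so that the distance of rat 36 cannot be told apart from the number range. Rat 33 was the highest of its group for Sst and the lowest for Nos1. Calb2 was also low in rat 26 (2.82, lesioned saline) and rat 30 (3.25, sham, both drugs), which did not meet the rule for a far value. The causes were not tested.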

How the results depend on the processing

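Under 11 other settings (filters, quantile normalization, trend, array weights, added signal, 3 covariates, 8 group means, without rat 2) and with each of 56 rats left out in turn, 0 tested markers were called in any comparison, and the smallest adjusted p of a marker was 0.325 (limma). Of 64 marker changes followed, 15 turned sign in at least 1 setting and 30 when a rat was left out; none was called, and 0 of the Npy changes with pramipexole turned sign in a setting. Calls over all probe sets ranged, under the 11 settings, from 61 (3′ minus 5′ signal as a covariate) to 262 for lesion without drugs (211 as reported), from 0 (no filter, cortex or spiny neuron covariate) to 7 (stricter filter) for L-dopa in lesioned saline-conditioned rats (3) and from 0 (no filter, quantile, trend, cortex or spiny neuron covariate, without rat 2) to 6 (array weights) for pramipexole in lesioned L-dopa rats (3). The relation of Npy and Sst lost its call within numbers 38 to 56 (r = 0.30) and without the 2 farthest rats (r = 0.41); the cause was not tested. Leaving out each rat gave r between 0.41 and 0.53. It kept its side of the threshold under quantile normalization, added signal, without rat 2 and with the cortex, spiny neuron or 3′ minus 5′ signal removed. Another probe set could not be tried, since each marker has 1. No paired analysis was possible because rat numbers are not shared between groups.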
